A study of Mus musculus with 1 sample.

Results

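The 9 genes described here, Gata3, Tcf7, Rora, Trbc1, Trbc2, Il2rb, Zbtb16, Il7r and Thy1, were taken by symbol from the 32285 genes of a single-cell RNA-seq count matrix of mouse bone marrow, and all 9 were present once. The matrix holds 1 library of lineage-negative Kit+ cells from the femora and tibiae of C57BL/6 mice whose Brd9 alleles are floxed (Brd9fl/fl) and that carry no Cre in the study's control arm, so Brd9 was not deleted by design. The mice received pIpC, a double-stranded RNA analogue that drives Mx1-Cre where it is present, at 20 mg/kg in 3 doses, and cells were prepared 8 weeks later. The labels describe CD45.2(+) donor cells in CD45.1(+) CD45.2(-) recipients while the series text describes primary mice, and the number of mice pooled is not given in the sources used here. With 1 library there is no replicate and no second condition, so the values below carry 95% intervals for counting error only and no test between conditions was possible.

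Gata3, Tcf7, Rora and Zbtb16 encode transcription factors of the innate lymphoid and T cell programs. TCF-1, the product of Tcf7, and GATA3 act early in T cell specification in the thymus and in innate lymphoid precursors in the marrow, RORα (Rora) is required for group 2 innate lymphoid cells, and PLZF (Zbtb16) marks innate lymphoid precursors and innate-like T cells. Il7r encodes the interleukin-7 receptor α chain, on which lymphocyte development depends, Il2rb the β chain shared by the interleukin-2 and interleukin-15 receptors, and Thy1 a surface protein of T cells and many innate lymphoid cells. Trbc1 and Trbc2 are the alternative constant regions of the T cell receptor β chain, and transcripts of these regions can also arise from a locus that has not been rearranged. A gate on lineage-negative Kit+ cells is meant to hold progenitors and to leave out mature T cells and natural killer (NK) cells.

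Trbc1 and Trbc2 share much of their sequence, which limits how far their counts can be told apart, so the coding stretch in which they differ most is shown, from base 399 to base 518 of each transcript in the GENCODE annotation of GRCm38, with the 19 differing bases in capitals.
Trbc1: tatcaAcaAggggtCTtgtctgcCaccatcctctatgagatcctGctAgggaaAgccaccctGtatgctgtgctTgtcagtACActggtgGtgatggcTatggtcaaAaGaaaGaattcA
Trbc2: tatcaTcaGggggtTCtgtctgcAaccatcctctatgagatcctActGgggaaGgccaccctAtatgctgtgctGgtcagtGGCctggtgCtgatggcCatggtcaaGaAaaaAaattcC
Over the 521 coding bases, stop codon included, the pair was identical at 498 (95.6%). Of the 648 windows of 90 bases in the longer Trbc1 transcript, 203 were also found in Trbc2, and none of the 216 windows that reach past the stop codon was. Reads that lie wholly in a shared coding stretch cannot be given to 1 of the genes by sequence, so the separate counts of Trbc1 and Trbc2 are uncertain to that extent.

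On GRCm38 the T cell receptor pair lies on the plus strand of chromosome 6, Trbc1 (ENSMUSG00000076490) from 41538218 to 41539881 and Trbc2 (ENSMUSG00000076498) from 41546730 to 41548352. Gata3 (ENSMUSG00000015619) lies on chromosome 2 from 9857078 to 9890034 on the minus strand, and its exons overlap those of 9230102O04Rik on the same strand and of Gm13256 on the other, so reads in the overlap are uncertain. Tcf7 (ENSMUSG00000000782) is on chromosome 11 from 52252371 to 52283014 on the minus strand. Chromosome 9 holds Rora (ENSMUSG00000032238, 68653786 to 69388246, plus strand), whose exons overlap Gm15511 on the other strand, Zbtb16 (ENSMUSG00000066687, 48654297 to 48836222, minus strand) and Thy1 (ENSMUSG00000032011, 44043384 to 44048579, plus strand). Il7r (ENSMUSG00000003882, 9505788 to 9530176) and Il2rb (ENSMUSG00000068227, 78479256 to 78495271) are both on the minus strand of chromosome 15. Except for the overlaps given for Gata3 and Rora, no exon of the 9 genes overlapped that of another annotated gene.

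The library held 8817 barcodes, of which 7645 passed the study's filter on unique molecular identifiers (UMIs, each standing for 1 counted transcript molecule), genes and mitochondrial share. The cells kept had 1592 to 49991 UMIs with a median of 18696, and 65.8% had at least 1 Kit UMI. Levels are given as UMIs of a gene per 1000000 UMIs of the same cells (CPM). They are compared across cells and clusters for each gene and not between genes. Over the cells kept, the 9 genes together took 3987 UMIs.

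The 9 genes split by how they were spread over cells. Zbtb16, Gata3, Rora and Thy1 were found in 208 cells or more, mostly at 1 UMI per cell, whereas Tcf7, Trbc1, Trbc2 and Il2rb were each found in 48 cells or fewer, often at several UMIs. Zbtb16 had a UMI in 931 cells (12.2%, interval 11.5 to 12.9%), Gata3 in 596 (7.80%, 7.20 to 8.42%), Rora in 441 (5.77%, 5.26 to 6.31%) and Thy1 in 208 (2.72%, 2.37 to 3.11%). In these cells the mean was 1.22 UMIs for Zbtb16, 1.35 for Gata3, 1.38 for Rora and 1.25 for Thy1. Il7r stood between the 2 kinds, with 611 UMIs in 167 cells (2.18%, 1.87 to 2.54%) and a mean of 3.66 per cell with a UMI. Trbc2 was found in 48 cells (0.628%, 0.463 to 0.832%), Tcf7 in 43 (0.562%, 0.407 to 0.757%), Trbc1 in 42 (0.549%, 0.396 to 0.742%) and Il2rb in 17 (0.222%, 0.13 to 0.356%). Their means were 3.13 UMIs per cell with a UMI for Trbc2, 4.09 for Tcf7, 4.74 for Trbc1 and 2.29 for Il2rb.

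The 10 cells richest in each gene held 72.9% of all Trbc1 UMIs, 82.1% of Il2rb, 59.7% of Tcf7 and 51.3% of Trbc2, but 4.92% of Zbtb16 and 8.23% of Gata3 UMIs. The highest count in a single cell was 36 UMIs for Trbc1, 21 for Il7r, 14 for Gata3, Tcf7 and Rora, 13 for Trbc2, 12 for Zbtb16, 8 for Il2rb and 7 for Thy1. The share of cells with a UMI depends on depth, and with every cell thinned to 2000 UMIs (7641 cells) it was 1.96% for Gata3, 1.92% for Zbtb16, 1.41% for Rora, 1.06% for Il7r and 0.550% for Thy1. At that depth Trbc2 was found in 0.406% of cells, Tcf7 in 0.288%, Trbc1 in 0.249% and Il2rb in 0.105%. As a background, erythroid-like cells, which should lack these genes, were used. In these 668 cells, with a median of 34806.5 UMIs, the unthinned share ran from 0.150% for Tcf7, Trbc2, Il7r and Thy1 to 1.2% for Zbtb16. Il2rb was found in 0 of 668 erythroid-like cells, which allows a share of up to 0.449%. At 2000 UMIs per cell the erythroid-like share was 0.299% for Zbtb16, 0.150% for Gata3 and 0 for the other 7 genes, for each of which 0 of 668 cells allows up to 0.449%. The thinned shares of Tcf7, Trbc1, Trbc2 and Il2rb over all cells lay below that limit, so a difference from the erythroid-like cells was not detectable for these 4 genes from the overall share.

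Cells were clustered on components that left out the 9 genes, Kit and all companion genes below. This gave 18 clusters, and the level of each of the 9 genes was highest in the same one, a cluster of 41 cells (0.536% of the cells kept). The cluster is called here the Trbc-Il7r cluster after its leading genes, Trbc1, Trbc2, Il7r, Tcf7, Ccl5, Gm36723, Ccr9, Bcl11b, Cxcr6 and Tcrg-C4. It was given no cell type name: 10 of 12 T, NK or innate lymphoid markers were at least 1.5 times as high there as in the remaining cells, but its median of 3362 UMIs was below 6232, the library's median divided by 3, and a cluster that shallow was named only with a marker of its list among its 10 leading genes, which it lacked. These 41 cells held 0.123% of all UMIs and 20.6% of the UMIs of the 9 genes. All 9 were higher there than in the cluster next in order, with ratios from 4.6 (3.09 to 6.66) for Zbtb16 to 296 (196 to 461) for Trbc2. The separate cluster depended on the settings. At resolution 0.4, with another seed and without doublet calls, the 41 cells fell in a larger cluster led by Igkc and Jchain, which the naming rule called B lineage-like.

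**Figure D1:**
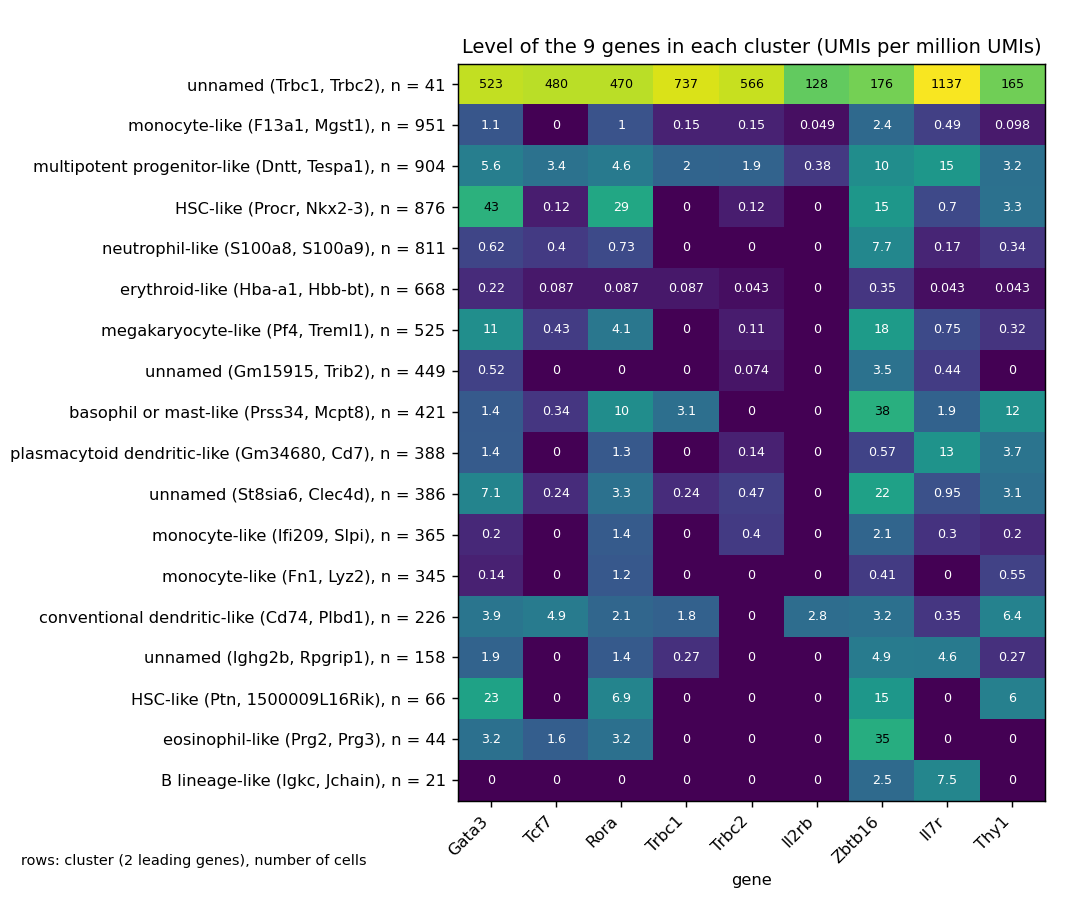
Level of the 9 genes (columns) in each of 18 clusters (rows, with 2 leading genes and the number of cells), in UMIs per 1000000 UMIs; colour is the level on a log scale and the number is the level. The top row, the 41-cell Trbc-Il7r cluster, holds the highest level of every gene, from 128 for Il2rb to 1137 for Il7r, while Gata3 and Rora are next highest in the HSC-like cells and Zbtb16 in the basophil or mast-like cells.

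Among the transcription factors, Gata3 and Rora had a second domain in stem cell-like cells. Gata3 was at 523 CPM (425 to 637) in the Trbc-Il7r cluster, where 31 of 41 cells had a UMI, and at 43.3 CPM (39.0 to 47.9) in the larger HSC-like cluster, led by Procr and Nkx2-3, where 287 of 876 cells had one. That HSC-like cluster held 46.4% of all Gata3 UMIs and the Trbc-Il7r cluster 12.2%. The smaller HSC-like cluster of 66 cells followed at 23.3 CPM (15.3 to 33.9), below the larger one by intervals that do not overlap, and megakaryocyte-like cells at 10.7 CPM (8.69 to 13). Rora was at 470 CPM (377 to 579) in the Trbc-Il7r cluster, with 25 of 41 cells, and at 29.1 CPM (25.6 to 32.9) in the larger HSC-like cluster, with 187 of 876. Basophil or mast-like cells came next for Rora at 10.1 CPM (7.67 to 13), which overlapped the 6.90 CPM (2.98 to 13.6) of the smaller HSC-like cluster. The UMIs per cell differed between these domains: cells with Gata3 held a mean of 3.16 Gata3 UMIs in the Trbc-Il7r cluster and 1.30 in the HSC-like one, although the median depth was 3362 UMIs in the former and 8729 in the latter.

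Zbtb16 was the most widely found of the 9 genes and the least tied to the Trbc-Il7r cluster, which held 2.90% of its UMIs. It stood at 176 CPM (121 to 247) there, but in 6 of 41 cells with a mean of 5.50 UMIs each. In basophil or mast-like cells it was at 38.3 CPM (33.4 to 43.6), with 160 of 421 cells, and in eosinophil-like cells at 35.2 CPM (22 to 53.2), with 16 of 44, and these intervals overlapped. A cluster of 386 cells led by St8sia6 and Clec4d, without a cell type name, followed at 22.3 CPM (18.0 to 27.2). Tcf7 was at 480 CPM (386 to 590) in the Trbc-Il7r cluster, where 17 of 41 cells held 51.1% of its UMIs. The next level, 4.95 CPM in the conventional dendritic-like cluster, came from a single cell of 24179 UMIs with 14 Tcf7 and 8 Il2rb UMIs, which Scrublet, a program that scores barcodes for 2 joined cells, marked as a doublet. In multipotent progenitor-like cells Tcf7 was at 3.43 CPM (2.58 to 4.48), from 54 UMIs in 10 of 904 cells.

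Il7r, the receptor gene with the most UMIs, was found in 3 settings. In the Trbc-Il7r cluster it was at 1137 CPM (989 to 1300), with 36 of 41 cells and up to 21 UMIs per cell. Multipotent progenitor-like cells had 14.9 CPM (13.1 to 17.0) in 61 of 904 cells, and plasmacytoid dendritic-like cells 12.9 CPM (10.4 to 15.8) in 33 of 388, by intervals that overlap. Of the 131 cells with Il7r outside the Trbc-Il7r cluster, 77 also had a UMI of Rag1, which encodes a recombinase subunit of antigen receptor rearrangement, or of Ly6d, a surface marker of lymphoid progenitors. This pair of genes was chosen after values were seen, so the count is a description. These 77 cells had a mean of 3.83 Il7r UMIs, 68 of them had a UMI of Dntt (terminal transferase), and 10 (13%) had a UMI of another of the 9 genes. In the Trbc-Il7r cluster, by contrast, all 36 cells with Il7r had another of the 9 genes and 1 had Rag1 or Ly6d. The remaining 54 cells with Il7r had a mean of 1.91 Il7r UMIs, 21 of them (38.9%) had another of the 9 genes and 12 had 3 or more of the 9. Depth was unequal, with a median of 3365 UMIs in the 36 cells, 14080 in the 77 and 15262.5 in the 54.

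Il2rb was at 128 CPM (82.1 to 191) in the Trbc-Il7r cluster, from 24 UMIs in 10 of 41 cells, and the 15 UMIs elsewhere lay in 7 cells, 8 of them in the doublet call of the dendritic-like cluster. Thy1 was at 165 CPM (112 to 235) in the Trbc-Il7r cluster, with 19 of 41 cells, at 11.8 CPM (9.17 to 14.9) in basophil or mast-like cells, with 46 of 421, and at 6.36 CPM (3.77 to 10.1) in conventional dendritic-like cells. The intervals of these last values overlapped.

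Trbc1 stood at 737 CPM (619 to 870) and Trbc2 at 566 CPM (463 to 684) in the Trbc-Il7r cluster, which held 69.3% and 70.7% of their UMIs. Outside it the pair differed. Trbc1 had 18 UMIs in 13 of 421 basophil or mast-like cells, at most 3 per cell, at 3.07 CPM (1.82 to 4.86), and Trbc2 had a UMI in 0 of these 421 cells, which allows a share of up to 0.713%. Trbc2 was next highest in multipotent progenitor-like cells, at 1.91 CPM (1.29 to 2.72) from 30 UMIs in 9 cells, where Trbc1 was at 1.97 CPM (1.34 to 2.80) from 31 UMIs in 4 cells. Of the 72 cells with a UMI of either constant region, 18 had both.

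Of those 72 cells, 7 (9.72%, 4.0 to 19.0%) had a UMI of Cd3d, Cd3e or Cd3g, the CD3 chains that carry the T cell receptor to the surface, against 25 of 7573 cells (0.33%) with neither constant region. A UMI of Trdc or Tcrg-C1, constant regions of the δ and γ chains, was found in 11 of the 72 and Trac, the α chain constant region, in 3. Among the 18 cells with both Trbc1 and Trbc2, 3 had a CD3 UMI and 7 had Trdc or Tcrg-C1. The 13 basophil or mast-like cells with Trbc1 had no CD3 UMI, which allows a share of up to 23.1%. The median depth was 9483 UMIs in the 72 cells and 18764 in the cells without either gene. Counts per gene do not tell a rearranged β chain transcript from one of an unrearranged locus.

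Detection of the 9 genes overlapped unevenly. Of the 17 cells with Il2rb, 13 (76.5%, 50.1 to 93.2%) had Tcf7, against 0.393% of cells without Il2rb, and 12 had Il7r. Of the 48 cells with Trbc2, 37 (77.1%, 62.7 to 88.0%) had Il7r and 32 (66.7%, 51.6 to 79.6%) had Gata3, against 1.71% and 7.42% of cells without Trbc2. Trbc1 was shared more evenly, with 22 of its 42 cells holding Gata3, 19 Tcf7, 19 Zbtb16, and 18 each Rora, Trbc2 and Il7r. The pair found together in the most cells was Gata3 and Rora, with 112 cells, which is 18.8% of the Gata3 cells and 25.4% of the Rora cells. Of the cells with Zbtb16, 79.2% had none of the other 8 genes, and 1.07% had Il7r, against 2.34% of cells without Zbtb16. That order turned at 2000 UMIs per cell, where Il7r was found in 5 of 147 cells with Zbtb16 (3.40%) and in 1.01% of the rest, so none is read from it. Each of the other 7 genes had a higher share in cells with Zbtb16 than without. The intervals were apart for Gata3, Trbc1 (2.04% against 0.343%) and Tcf7 (1.61% against 0.417%). They overlapped for Rora and Thy1. They also overlapped for Trbc2 (0.752%, 0.303 to 1.54%, against 0.611%) and Il2rb (0.43%, 0.117 to 1.096%, against 0.194%). Of the 19 cells with Trbc1 and Zbtb16, 9 were basophil or mast-like. The share of cells without any other of the 9 genes was 59.9% for Gata3, 59.2% for Rora, 59.9% for Il7r and 55.3% for Thy1, but 16.3% for Tcf7, 11.9% for Trbc1, 12.5% for Trbc2 and 11.8% for Il2rb.

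**Figure D2:**
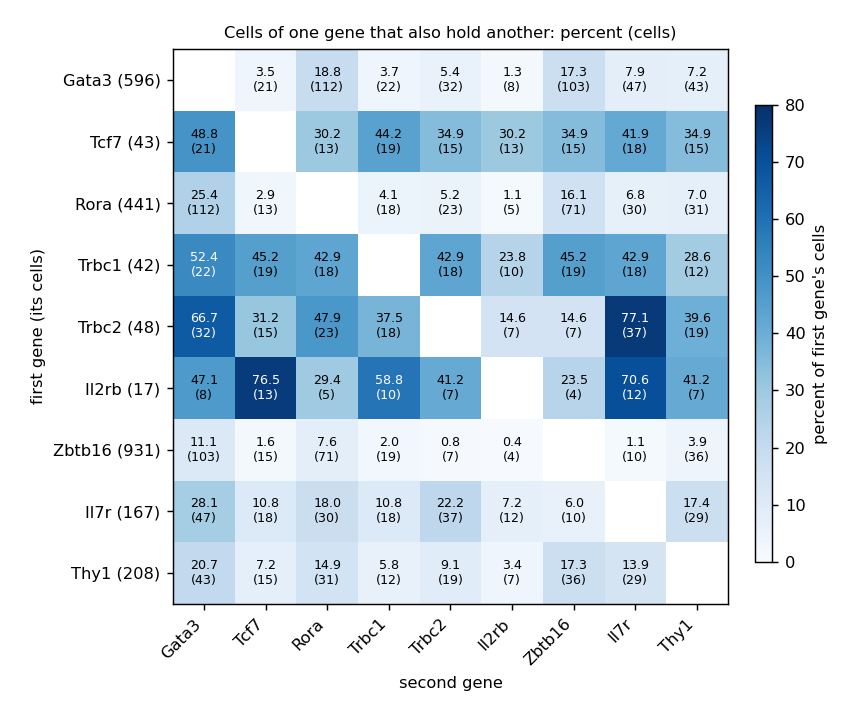
Share of the cells with a UMI of the gene named on the row (number of cells in brackets) that also had a UMI of the gene named in the column, with the number of cells with both. The rows of Tcf7, Trbc1, Trbc2 and Il2rb reach from 14.6% to 77.1%, the latter for Il7r among Trbc2 cells, and the row of Zbtb16 from 0.43% to 11.1%.

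Of the 7645 cells, 5692 (74.5%) had none of the 9 genes, 1590 had 1 and 285 had 2. Cells with 3 or more are called co-detecting here, and there were 78 (1.02% of the cells kept): 36 with 3 genes, 14 with 4, 12 with 5, 7 with 6, 5 with 7 and 4 with 8. No cell had all 9. Of the 41 cells of the Trbc-Il7r cluster, 38 (92.7%, 80.1 to 98.5%) were co-detecting. The other 40 co-detecting cells were spread over 10 clusters, with 11 of 904 multipotent progenitor-like cells (1.22%, 0.609 to 2.17%), 10 of 876 cells of the larger HSC-like cluster (1.14%, 0.549 to 2.09%) and 5 or fewer in each of the rest. No co-detecting cell was found among 668 erythroid-like cells, which allows a share of up to 0.449%, or among 811 neutrophil-like cells, which allows up to 0.370%. When every cell was thinned to 2000 UMIs, 28 cells were still co-detecting, and 27 of these lay in the Trbc-Il7r cluster and 1 among multipotent progenitor-like cells. At 5000 UMIs, a depth that 30 of the 41 cells of the Trbc-Il7r cluster do not reach, 19 cells were co-detecting. Of these 19, 10 lay in that cluster, 3 among multipotent progenitor-like cells, 2 in the larger HSC-like cluster and the rest singly in other clusters. Co-detection in the other clusters was thus seen at full depth, in part at 5000 UMIs and almost not at 2000 UMIs.

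The 78 cells held 43 combinations of genes, 29 of them in 1 cell each. The most frequent was Gata3, Rora and Zbtb16, in 11 cells with a median of 14104 UMIs, of which 10 had a Kit UMI and 0 lay in the Trbc-Il7r cluster. Next came Gata3, Trbc2 and Il7r, in 6 cells with a median of 2855 UMIs, of which 1 had a Kit UMI and 5 lay in that cluster. Gata3, Zbtb16 and Thy1 were found in 5 cells, all with Kit and all outside the cluster. The 2 sets of cells differed in how many UMIs lay behind each detection: the co-detecting cells of the Trbc-Il7r cluster had a median of 13 UMIs of the 9 genes and those outside it 5, and in 11 of the 40 outside cells no gene exceeded 1 UMI, against 1 of the 38.

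Single cells show what such a profile holds. The cell with the most UMIs of the 9 genes, 86 of its 7714 in all, had 36 of Trbc1, 13 of Rora, 12 of Trbc2, 9 of Tcf7, 7 of Gata3, 5 of Il7r, 3 of Zbtb16 and 1 of Thy1, with 1 Kit UMI. A cell of 5996 UMIs had 13 of Il7r, 12 of Trbc1, 8 of Tcf7, 7 of Trbc2, 6 of Gata3, 5 each of Rora and Zbtb16 and 1 of Thy1, and no Kit. Both had many UMIs of Id2, the inhibitor of E proteins that innate lymphoid cells depend on, at 28 and 21, and no UMI of Cd3d, Cd3e or Cd3g. They also held other genes of the T cell list, with 5 and 9 UMIs of Bcl11b and 3 and 5 of Tcrg-C1. Another cell of 14148 UMIs had 14 of Gata3, 10 of Rora, 9 of Trbc2, 8 of Il7r and 4 of Thy1 with none of Tcf7, Trbc1 or Zbtb16, and had 12 UMIs of Il1rl1, the interleukin-33 receptor of group 2 innate lymphoid cells, and 8 of Kit. A cell of 4482 UMIs had 5 each of Trbc2 and Il2rb, 3 each of Tcf7 and Il7r and 1 of Thy1, together with 5 UMIs of Cd3g, 4 of Cd3d and 1 of Cd3e. Such cells with CD3 were few, since Cd3g was found in 7 of the 78.

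**Figure D3:**
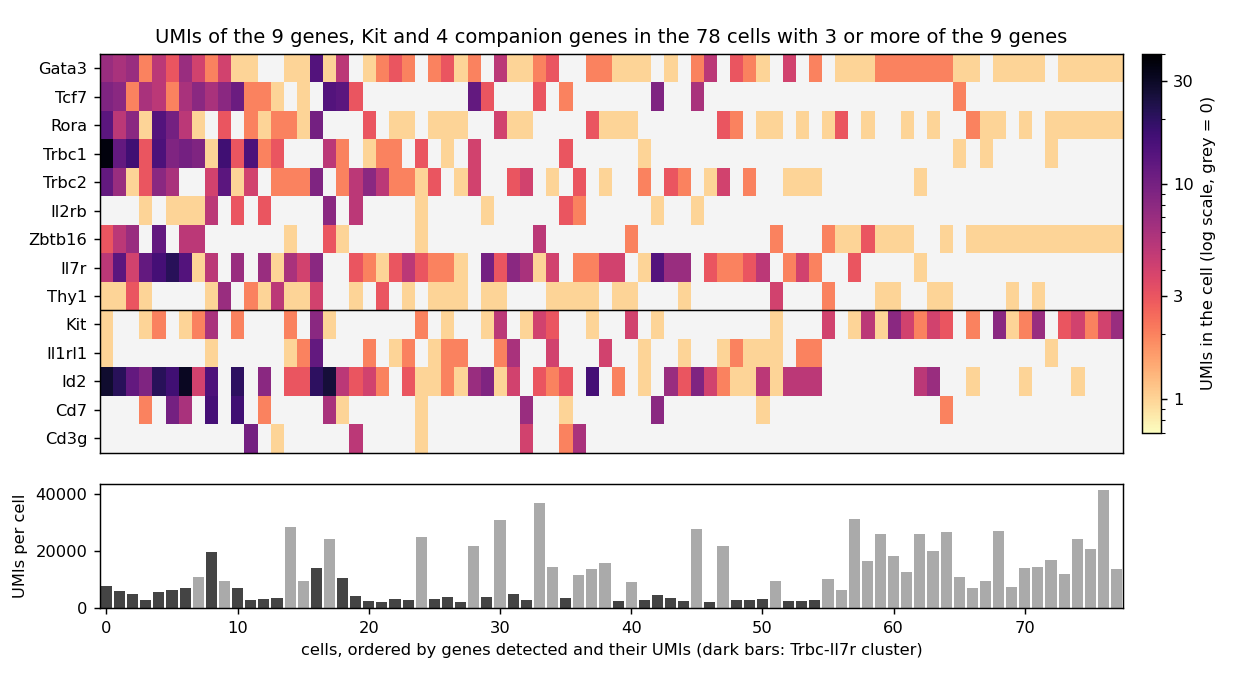
UMIs of the 9 genes, Kit and 4 companion genes (rows; colour on a log scale, grey for 0) in the 78 co-detecting cells (columns, ordered by the number of the 9 genes found and then by their UMIs), with the total UMIs of each cell as bars below, dark for the Trbc-Il7r cluster. Cells at the left are mostly shallow cells of the Trbc-Il7r cluster with several UMIs of Trbc1, Trbc2, Tcf7 and Il7r, and cells at the right are deeper, mostly hold Kit and have mostly 1 UMI each of Gata3, Rora and Zbtb16.

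Co-detecting cells were shallow. Their median was 9290 UMIs (interval of the median 5824 to 12118), against 19853.5 in cells with none of the 9 genes, 15022.5 in cells with 1 and 15050 in cells with 2. Those in the Trbc-Il7r cluster ran from 2278 to 19548 UMIs with a median of 3398.5, and those outside it from 6530 to 41454 with a median of 16225. All 27 co-detecting cells under 5000 UMIs lay in the Trbc-Il7r cluster. Among these 27, Il7r was found in 25, Gata3 and Trbc2 in 19 each, Rora in 15, Thy1 in 14 and Zbtb16 in 0, which allows a share of up to 11.1%. Among the 51 deeper ones Zbtb16 was found in 33. The mitochondrial share was alike, with medians of 3.99% inside the cluster and 3.90% outside. Scrublet marked 0 of the 38 and 4 of the 40. The part of depth in which genes were found together was not tested.

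Kit, the receptor on which the cells were sorted, had a UMI in 40 of the 78 co-detecting cells (51.3%, 39.7 to 62.8%), against 62.0% (60.8 to 63.3%) of cells with none of the 9 genes, 76.8% (74.6 to 78.8%) with 1 and 83.9% (79.1 to 87.9%) with 2. The level gave another order: Kit was at 133 CPM (111 to 159) in co-detecting cells, above the 73.7 CPM (72.2 to 75.2) of cells with none of the 9 genes, close to the 135 CPM (131 to 140) of cells with 1 and below the 172 CPM (161 to 184) of cells with 2. With each cell thinned to 2000 UMIs, 19.2% of co-detecting cells (11.2 to 29.7%) had a Kit UMI, against 16.6% with none of the 9 genes, 24.7% with 1 and 35.4% (29.9 to 41.3%) with 2. Because the unthinned share went against the CPM at unequal depths, no order was read from it.

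Inside the Trbc-Il7r cluster 11 of 38 co-detecting cells had a Kit UMI (28.9%, 15.4 to 45.9%) and outside it 29 of 40 (72.5%, 56.1 to 85.4%), at levels of 139 CPM (90.2 to 206) and 132 CPM (107 to 161). The level inside rested on few cells, since 14 of the cluster's 25 Kit UMIs came from 2 cells with 19548 and 14148 UMIs. In the 27 co-detecting cells under 5000 UMIs Kit was at 59.2 CPM (19.2 to 138), from 5 UMIs in 5 cells, against 217 CPM (164 to 281), from 57 UMIs in 25 of 72 cells, in cells of that depth with fewer than 3 of the 9 genes. At 2000 UMIs per cell the shares were 7.41% (0.910 to 24.3%) and 25% (15.3 to 37.0%), whose intervals overlap.

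**Figure D4:**
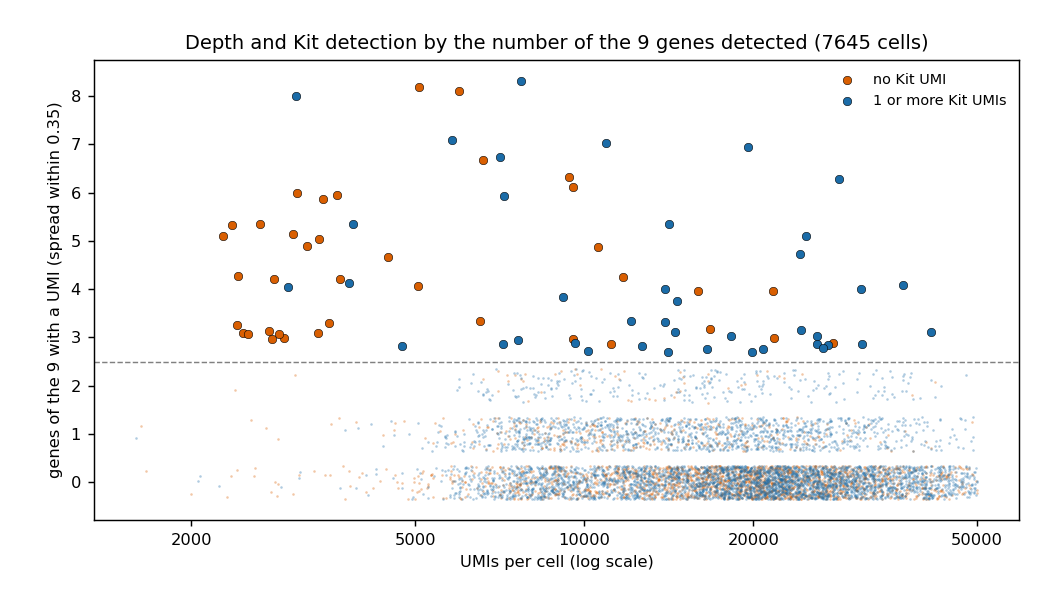
UMIs per cell (horizontal, log scale) and number of the 9 genes with a UMI (vertical, points spread within each whole number) in 7645 cells; blue cells have a Kit UMI and orange cells have none, and the larger points above the dashed line are the 78 co-detecting cells. Most co-detecting cells under 5000 UMIs are orange and most of the deeper ones are blue.

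Kit detection differed between cells with different members. A Kit UMI was found in 84.7% (81.6 to 87.5%) of the cells with Gata3, 81.2% (78.5 to 83.7%) with Zbtb16 and 78.5% (74.3 to 82.2%) with Rora, all above the 65.8% of all cells, but in 40.1% (32.6 to 48.0%) with Il7r and 33.3% (20.4 to 48.4%) with Trbc2 and 45.2% (29.8 to 61.3%) with Trbc1. The intervals of Thy1 (59.1%, 52.1 to 65.9%), Il2rb (58.8%, 32.9 to 81.6%) and Tcf7 (55.8%, 39.9 to 70.9%) held the share of all cells. At 2000 UMIs per cell Kit was found in 35.4% of Gata3 cells, against 17.6% of cells without Gata3. For Il7r this share was 8.38% against 19.2%, for Rora 29.9% against 18.3% and for Zbtb16 24.97% against 18.16%. Gata3, Il7r, Rora and Zbtb16 thus kept their order. For Trbc2 the share was 14.6% against 19.0%, and the Kit level was 108 CPM in its cells against 88.0 CPM in the rest, so that no order can be read from it. Trbc1 was alike in this, with 16.7% against 19.0%. The thinned share was 29.4% against 19.0% for Il2rb and 21.2% against 18.9% for Thy1, above the rest where the unthinned share was below it, and 18.6% against 19.0% for Tcf7.

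Companion genes of the T, NK and innate lymphoid lineages were compared between the 78 co-detecting cells and all other cells kept, at a ratio of CPM of 2 or more. Of 44 genes in 4 lists, 33 had at least 20 UMIs, and 30 of these passed (90.9%). Over all 14872 other genes with at least 20 UMIs, 17.2% passed and the median ratio was 1.08. Of the 33, however, 10 reached 20 UMIs only with those of the co-detecting cells, so that they had to pass. The counts that follow for these lists therefore ask for 20 UMIs in the other cells alone, a limit added after seeing the data, under which 20 of 23 genes passed, against 16.9% of 14823 genes. The 40 co-detecting cells outside the Trbc-Il7r cluster, taken alone, gave 16 of 23, against 15% of all genes, and the 38 inside gave 22 of 25, against 20.1%. With 20 UMIs over all cells kept, these counts were 18 of 25 outside, against 15.1%, and 30 of 33 inside, against 20.3%.

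All 4 genes of group 2 innate lymphoid cells that reached the limit passed, with a median ratio of 62.3. Ccr9, a gut-homing chemokine receptor that is also on the plasmacytoid dendritic marker list used here, was at 127 CPM against 0.947 (ratio 134, 104 to 172). Il1rl1 was at 61.2 against 11.4 CPM (5.35, 4.02 to 6.97), with a UMI in 25 of the 78 cells and in 14.1% of the rest. Il17rb, the interleukin-25 receptor, had a ratio of 19.7 (13.1 to 28.6). Below the limit, Arg1, which encodes arginase-1, had 34 UMIs in the 78 cells and 13 elsewhere. Areg and Il5, which encode effector cytokines of these cells, had no UMI in the 78 cells, but also only 3 and 1 UMIs in all other cells kept. Of the same list, Il13 had 1 UMI in the 78 cells and 18 elsewhere, and Klrg1 had 3 in each. Of the innate lymphoid progenitor list, all 7 such genes passed, with a median ratio of 9.65. Id2 was at 405 against 30.8 CPM (13.2, 11.8 to 14.6), in 51 of the 78 cells, and Tox, a factor needed for innate lymphoid development, at 120 against 4.11 (29.3, 23.7 to 35.9). Ets1 had a ratio of 9.65 (7.97 to 11.6) and Itga4, the integrin α4 chain, of 2.82 (2.51 to 3.15).

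Of the T cell list, 6 of 7 genes passed, with a median ratio of 8.68. That median was the ratio of Ptcra, which rested on 2 UMIs (interval 1.01 to 33.6). Zap70 passed on 1 UMI, and its interval (0.182 to 46.4) held 1. Below the limit, Bcl11b, a factor of T cell commitment that group 2 innate lymphoid cells also need, had 68 UMIs in 22 co-detecting cells and 3 UMIs in 3 other cells (interval of the ratio 1226 to 18578). Lat, a signalling adaptor, had a ratio of 3.68 (2.75 to 4.82) and Lck, a kinase of T cell receptor signalling, of 21.6 (15.3 to 29.9). Cd3g, also below the limit, had 29 UMIs in 7 co-detecting cells and none elsewhere. This is 1594-fold when 3 UMIs are allowed in all other cells together, and the lower limit of the exact interval was 1216. Cd4, a T cell coreceptor, and Cd5, the gene that did not pass, had no UMI in the 78 cells.

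Of the NK list, 3 of 5 genes passed, with a median ratio of 6.87. Ccl5, a chemokine of cytotoxic lymphocytes, was at 298 against 1.72 CPM (174, 146 to 207), in 21 of the 78 cells, and Klrd1, the CD94 receptor chain, had a ratio of 26.3 (19.8 to 34.4). Below the limit, Gzma, granzyme A, had 23 UMIs, all in 2 cells and 21 of them in 1 cell. Ncr1, the receptor NKp46, also below it, had 23 in 5 cells. Neither gene had a UMI in any other cell kept (1264-fold against 3 UMIs, lower limit of the exact interval 948). Nkg7, a granule protein also made by myeloid progenitors, did not pass, at 290 against 325 CPM (0.891, 0.787 to 1.01). Of the type 3 and lymphoid tissue inducer list, all 3 such genes passed. Ltb, lymphotoxin β, was at 231 against 8.89 CPM (25.9, 22.3 to 30.005) in 50 cells. Il22 and Il23r had no UMI in any cell kept.

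The other lineage lists moved less or the other way. Of 8 early lymphoid genes, 4 passed, against 17.2% of all genes tested, with a median ratio of 1.83. These were Satb1 (3.43, 2.74 to 4.25), Dntt (2.07, 1.57 to 2.68), Rag1 (13.2, 6.67 to 23.7) and Rag2. The 58 Dntt UMIs lay in 6 cells and the 12 Rag1 UMIs in 2 cells. Rag2 passed on 2 UMIs, and its interval (0.340 to 10.5) held 1. Ighm was lower, at 0.445 (0.368 to 0.533). Of 7 measured B lineage genes 3 passed, against the same 17.2%, with a median of 0.773. Each of the 3 rested on 1 cell, with 12 UMIs of Cd79a, 4 of Ebf1 and 2 of Pax5, and Ms4a1 had none in the 78 cells. Igkc, the κ light chain constant region, was at 18.6 against 1048 CPM. Of the 5 myeloid progenitor genes, all were at a ratio of 0.5 or less, where 16.4% of all genes tested lay, with Mpo (myeloperoxidase) at 1183 against 2472 CPM and Elane (neutrophil elastase) at 888 against 3061. Summed, these 5 were at 362 CPM in the co-detecting cells of the Trbc-Il7r cluster and 5024.5 CPM in those outside it. All 6 erythroid genes were also at 0.5 or less, with Car1 (carbonic anhydrase 1) at 69.9 against 815 CPM. The list's summed CPM in single co-detecting cells ran from 0 to 1704 for erythroid and from 0 to 30733 for myeloid genes.

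**Figure D5:**
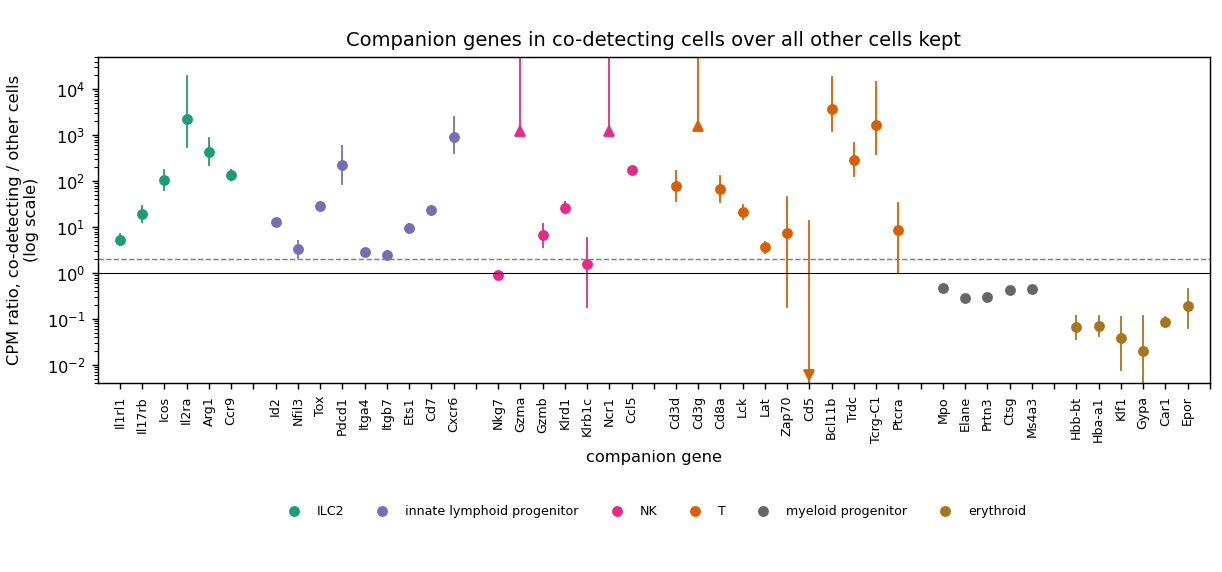
Ratio of CPM in the 78 co-detecting cells to CPM in all other cells kept (log scale) for the measured genes of 6 companion lists, with 95% intervals for counting error. Upward triangles are ratios against 3 UMIs for genes without a UMI in the other cells. The downward triangle is a gene without a UMI in the co-detecting cells, and the dashed line marks a ratio of 2. Of the 33 genes of the lymphoid lists 30 lie above the line, 10 of which had to by the filter on 20 UMIs, with Nkg7, Klrb1c and Cd5 below it, and those of the myeloid and erythroid lists lie below 1.

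Finally, the genes whose detection was most like that of each member were listed, with the other members left out. The measure was the phi coefficient, the correlation of found or not found over the 7645 cells, for genes found in at least 10 cells. The 7645 cells share 1 library and differ in depth, so phi is a description. For some members another member had a higher phi than any listed gene. These were Tcf7 (0.479 with Il2rb), Trbc1 (0.444 with Tcf7), Il2rb (0.479 with Tcf7) and Il7r (0.407 with Trbc2). For the remaining members this was not so. For Trbc2 the closest was Bcl11b (phi 0.518, with 18 of its 25 cells), followed by Cxcr6 (0.431), Tcrg-C4 (0.383) and Gimap3 (0.371). Tcf7 was closest to Trat1 (0.349), Tox2 (0.274), Tcrg-C4 (0.256) and Bcl11b (0.241), and Trbc1 to Tcrg-C4 (0.335), Trat1 (0.294), Tox2 (0.277) and Bcl11b (0.244). Il2rb was closest to Sh2d2a (0.312), Rasgrp1 (0.302), Tbx21 (0.279) and Trat1 (0.278). Trat1 encodes an adaptor of the T cell receptor and Tbx21 the factor T-bet. At 2000 UMIs per cell the phi of Il2rb with Tbx21 was -0.00037, and with its other 3 neighbours it was between 0.117 and 0.176.

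The other 5 genes had different neighbours, except that Thy1 shared Bcl11b with Trbc2, Tcf7 and Trbc1. Gata3 was closest to Mmrn1 (0.300), Mecom (0.293), Clec1a (0.289) and Hlf (0.284), and Rora to Nkx2-3 (0.254), Procr (0.229), Ly6a (0.217) and Hlf (0.207), among which Mecom, Hlf, Procr and Ly6a are known from hematopoietic stem cells. Zbtb16 was closest to Itga2b (0.237), the platelet integrin chain, Gata2 (0.223), Slc18a2 (0.220) and Cpa3 (0.216), a mast cell protease. Il7r was closest to Rag1 (0.403, with 35 of its 44 cells), Ly6d (0.399) and Arpp21 (0.348). Thy1 was closest to Bcl11b (0.202), Skap1 (0.158), Alox12e (0.151) and Il18r1 (0.138). At 2000 UMIs per cell phi was between 0.397 and 0.597 for the neighbours of Trbc2, 0.283 and 0.426 for Tcf7 and 0.228 and 0.458 for Trbc1. It was lower than at full depth for those of Gata3 (0.0598 to 0.143), Rora (0.111 to 0.115) and Zbtb16 (0.0471 to 0.101), and for Il7r with Rag1 (0.212), Ly6d (0.238) and Arpp21 (0.167). For Thy1 it was 0.255 with Bcl11b and 0.171 with Skap1, but 0.0149 with Il18r1 and -0.0032 with Alox12e.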

How the data were processed

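Per the labels and methods, single cells were captured with 10x Chromium 3′ reagents and the deposited counts were made by the authors with Cell Ranger 6.0.2 on mm10; the labels also describe a bulk RNA kit, which does not match a matrix of barcodes. The deposited matrix holds raw UMI counts per gene and barcode. UMIs were summed without further normalization. Cells were kept as in the study's methods, with more than 1000 and fewer than 50000 UMIs, more than 1000 and fewer than 6500 genes and under 7% mitochondrial UMIs. Scrublet in scanpy 1.11.5 (expected rate 6%, seed 1) marked 268 of 7645 cells, which were kept. Counts were transformed with SCTransform (Seurat 5.3.0, sctransform 0.4.2, R 4.3.3), with mitochondrial share and cell cycle difference regressed out, and clustered on 50 components at resolution 0.8, without the 9 genes, Kit and companion genes. A cluster was named from marker lists when at least 3 markers were at 10 CPM and 1.5-fold or more, the mean log2 ratio was at least 0.5, no other list had more markers among the 10 leading genes and at most 20% of cells were doublet calls. A cluster that met this stayed unnamed where its median UMI count was below the library's median divided by 3 and none of its markers was among its 10 leading genes.

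Leading genes had 50 CPM or more. Shares have exact Clopper-Pearson, levels exact Poisson and ratios exact conditional binomial 95% intervals (scipy 1.17.1), all for counting error only. A count of 0 was taken to allow up to 3 counts. No test between conditions was made, since there is 1 library. Ratio intervals were checked on drawn counts. Positions and Trbc transcripts are from GENCODE M21. Named were the 9 genes, up to 4 genes with the most UMIs in co-detecting cells of each companion list, list genes at 0 there, and up to 4 genes most alike to each member, of which 3 are not reported here; single companion genes with exceptions, among them Cd3d, Cd3e, Zap70, Rag1, Ebf1 and Pax5, were added after their values were seen. The members, lists and naming rule were chosen with earlier results of these data known. Alternatives were other cell filters, doublet removal, thinning to 5000 or 2000 UMIs, other co-detection limits and 5 other clusterings.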

Additional observations from a re-analysis of the deposited data

Results flagged for a closer look

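Of the 1172 barcodes that the cell filter removed, which enter no comparison above, 9 (0.768%) had a UMI of 3 or more of the 9 genes. Among the cells kept the share was 1.02%, so it was no higher in the removed barcodes. Of these 9, 5 had at least 50000 UMIs, 3 had a mitochondrial share of 7% or more and 2 had 1000 genes or fewer. One barcode of 14112 UMIs, with a mitochondrial share of 7.72%, had 27 UMIs of Trbc1, 16 of Tcf7, 5 each of Rora and Zbtb16, 3 of Gata3, 2 of Trbc2, 1 of Il2rb and none of Kit. Another of 62673 UMIs had 6 of Rora, 4 of Trbc1, 2 of Zbtb16, 1 each of Gata3, Tcf7 and Il7r and 6 of Kit. Whether the deepest of these barcodes hold more than 1 cell was not tested.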

How the results depend on the processing

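With 1 library there is no replicate, so no spread between animals is known and no paired analysis was possible because no sample shares a number with another. The 78 co-detecting cells became 87 with all deposited barcodes, 74 without doublet calls and 78 with Trbc1 and Trbc2 counted as 1 gene, but 43 with at least 5000 UMIs and under 5% mitochondrial UMIs, 19 after thinning to 5000 UMIs, 28 after thinning to 2000 UMIs (chosen after seeing the data) and 33 where 2 UMIs were asked for. The share of co-detecting cells with a Kit UMI moved from 51.3% to 72.1% under the stricter filter, 31.6% and 10.7% after thinning to 5000 and 2000 UMIs, and 76.9% from 2 members, and the median depth moved from 9290 to 15908, 3365 (at 2000) and 14104 UMIs under the stricter filter, thinning and 2 members. Lymphoid companion genes at a ratio of 2 or more stayed within 26 to 38 under another scaling, without doublet calls, with genes of 1 UMI or more and from 2 members, and were 18 in the co-detecting cells outside the Trbc-Il7r cluster and 20 of 23 with 20 UMIs asked for in the other cells (both added after seeing the data). The summed level of the 9 genes in the cluster with most co-detecting cells, 4382 CPM, was 1401 CPM at resolution 0.4 and with seed 2 and 1492 CPM without doublet calls, because 62, 62 and 61 cells then made up the cluster, the 41 cells among them and the rest led by Igkc and Jchain; it was 6282 CPM without mitochondrial, ribosomal protein and haemoglobin UMIs. Of the 9 shares of cells with a UMI, all were lower after thinning, and 6 left their interval under the stricter filter and 1 with all barcodes. Depth limits what a cell without a UMI can show.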
